A study of Mus musculus with 15 samples.

Results

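Among the DNA regions bound by FLAG-tagged Sp7 in MC3T3-E1 cells, 409 of 5018 (8.15%) overlapped neither a Dlx5 nor an Sp1 region. These 409 regions are described here. They were chosen by peak positions alone. A region of a factor was a merged set of peaks, sharing at least 1 bp, that held a peak of both replicate lists and overlapped no peak of the GFP control. The Sp7, Dlx5, Sp1 and GFP lists therefore fixed the members, and values taken from these lists are given as descriptions. The other 4609 Sp7 regions fell into 3 classes. Of these, 3087 overlapped a Dlx5 region only, 373 an Sp1 region only, and 1149 both.

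Sp7 (Osterix) is a zinc finger factor needed for osteoblast differentiation and belongs to the same family as Sp1. Sp1 is found in most cell types and binds GC-rich sites directly through its zinc fingers. Dlx5 is a homeodomain factor of the developing skeleton that binds AT-rich sites. The title of the series calls Sp7 a Dlx co-factor. The regions described here overlap no region, as defined above, of this proposed partner or of the GC-box binding relative. Dlx5 or Sp1 peaks can still lie at them.

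MC3T3-E1 is a mouse calvarial pre-osteoblast line. It was used at passages 5 to 10 after 1 week of osteogenic culture. The medium held ascorbic acid phosphate at 50 ug/ml, beta-glycerophosphate at 10 mM and recombinant human BMP-2 at 10 ng/ml. Tagged Sp7, Dlx5, Sp1 and a mutant called Sp7mut had 2 libraries each, and tagged GFP had 1. Primary osteoblasts came from calvaria of C57BL/6 pups at postnatal day 1. There, Sp7 carried the tag on both alleles (genotype Sp7-BioFL/BioFL, 2 libraries), and wild-type cells taken through the same FLAG pulldown served as control (1 library). The labels give neither the mutation in Sp7mut nor how the tagged factors were expressed in the line, and they name no separate culture or litter for each replicate. The spread between replicates may therefore be technical.

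The 2 replicate lists of some factors differed in length, which bears on what counts as a region. Sp7 had 18624 peaks in replicate 1 and 6063 in replicate 2. Sp1 had 10549 and 28210, Dlx5 30234 and 39749, Sp7mut 10519 and 14830, and primary Sp7 2666 and 3212. The GFP list held 269 peaks and the wild-type list 183. The lists give positions only, so the read depth behind each peak is unknown. With 2 lists for a factor, an exact two-sided permutation test over libraries cannot fall below p = 0.333, and regions of 1 library are not replicates. No test was therefore made. Differences are set against the spread between single lists and against 95% Clopper-Pearson (exact) intervals. These intervals hold counting error alone.

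Most of the 409 regions were not free of Dlx5 or Sp1 peaks. At least 1 of the 4 Dlx5 and Sp1 lists had a peak at 361 of them (88.3%), and 48 (11.7%) had a peak in none. Over all Sp7 regions, 0.957% had a peak in none of these 4 lists. Since a region without any such peak can only be a member, this background is fixed by the rule. With Sp7 replicate 1 or 2 left out, the members' share without such a peak was 24.1% or 29.2%. With a Dlx5 or Sp1 list left out it was 27.4% to 41.4%. That is not the same measure, since the left-out list was no longer checked. A peak of that factor's remaining list also sufficed to remove a region.

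Dlx5 peaks stood at 298 of the 409 regions. Of these, 134 had a peak of Dlx5 replicate 1 only, 125 of replicate 2 only, and 39 of both. In 38 of the 39 regions met by both lists, the 2 Dlx5 peaks did not overlap each other, and in 1 the Dlx5 region met a GFP control peak. The numbers met by 1 Dlx5 list alone were thus close for the 2 lists. A peak of either Dlx5 list stood at 72.9% of members (68.3 to 77.1) and 95.4% of all Sp7 regions. Regions with Sp1 only, which also lack a Dlx5 region by definition, were near the members, at 68.4% (63.4 to 73.1).

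Sp1 peaks were spread less evenly between the lists. Of the 409 regions, 214 had a peak of Sp1 replicate 2 only, 22 of replicate 1 only, 11 of both and 162 of neither. The longer Sp1 list thus met 55.0% of the regions, and the shorter met 8.07%. Sp7 regions with Dlx5 only, which also lack an Sp1 region by definition, showed the same imbalance, at 56.1% and 1.98%.

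**Figure D1:**
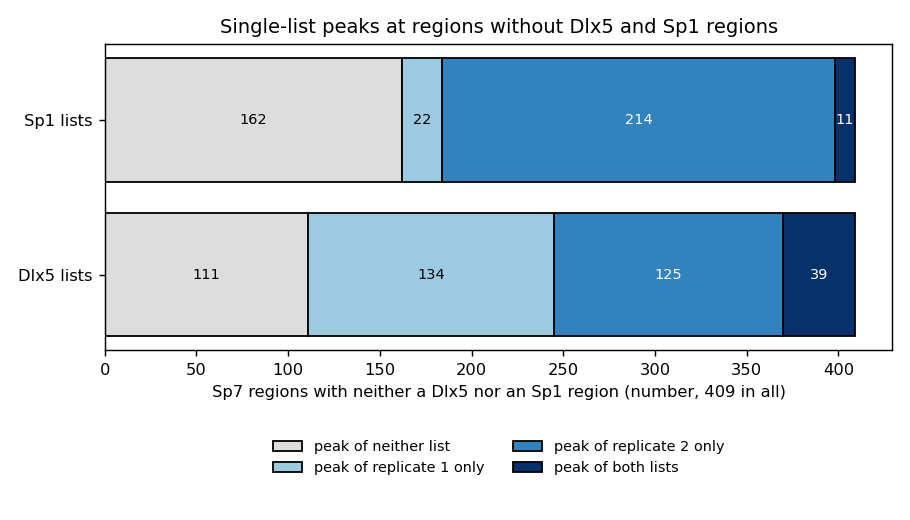
Number of the 409 Sp7 regions (x axis) with a peak in neither, 1 or both of the replicate lists of Dlx5 (lower bar) and Sp1 (upper bar). Dlx5 peaks found in 1 list only are split about evenly between the replicates (134 and 125), whereas those of Sp1 come mainly from replicate 2 (214 against 22).

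Counting the factors together, 114 of the 409 regions had Dlx5 peaks only, 63 Sp1 peaks only, 184 peaks of both factors and 48 of neither. The size of the class followed the lists used. With Dlx5 replicate 1 left out, so that a peak of replicate 2 sufficed, 266 regions qualified, and with replicate 2 left out 252 did. Without Sp1 replicate 1 the number was 194, and without Sp1 replicate 2 it was 390. Without Sp7 replicate 1 it was 725, and without Sp7 replicate 2, when every peak of the longer Sp7 list counted, it was 5108.

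The rule turns on single base pairs at its edge. The 5 members nearest to a Dlx5 or Sp1 region lay 2 to 14 bp from it. The nearest, chr4:55743233-55743520 (mm9), ended 2 bp from a Dlx5 region. The 5 regions that just missed membership overlapped a Dlx5 or Sp1 region by 1 to 4 bp. At chr17:36408407-36408579 the overlap was 1 bp.

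Regions without Dlx5 and Sp1 stood later in both Sp7 lists than regions with Dlx5. The authors' files give no score and the labels do not explain the order of rows. Positions are given as row percentiles, with 0 at the top of a list, as a description. The median member stood at percentile 34.6 of Sp7 replicate 1 and 65.2 of replicate 2. Regions with Dlx5 only stood earlier in both lists, at 18.0 and 41.4, as did regions with both partners, at 10.2 and 40.3. Regions with Sp1 only were earlier in replicate 1, at 21.2, and not in replicate 2, at 67.5.

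All Sp7 regions were then ordered by their mean percentile over both lists and divided into 10 equal parts. Members made up 1.20% of the first part, with 6 of 501 regions, and 2.59% of the second. The share was 19.5% in the ninth part and 16.5% in the tenth, where 98 and 83 members stood. The last 2 parts held 181 members, or 44.3% of the class.

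**Figure D2:**
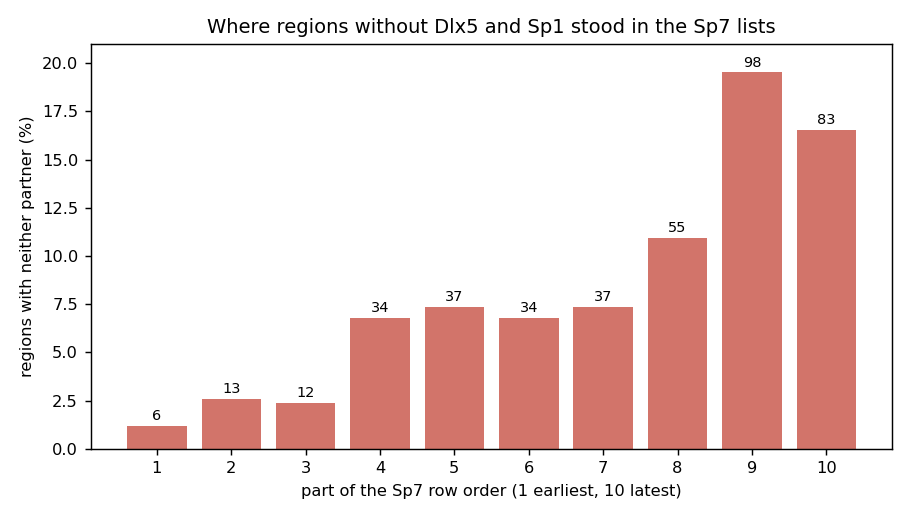
Share of Sp7 regions that overlapped neither a Dlx5 nor an Sp1 region (y axis, %) in 10 equal parts of the Sp7 row order (x axis), with the number of such regions above each bar. The share is 1.20% in the first part and 19.5% in the ninth.

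The 2 Sp7 peaks of a member were less closely aligned than those of regions with Dlx5. Midpoints of the 2 Sp7 peaks lay a median of 33.5 bp apart at members, 23.5 bp at regions with Dlx5 only, 37 bp with Sp1 only and 26.5 bp with both. Spearman's rho between row percentiles in the 2 lists was 0.470 across the members, 0.687 across regions with Dlx5 only, 0.604 with Sp1 only and 0.759 with both. These are descriptions across regions of the same 2 libraries. Median peak widths at members were 176 bp in replicate 1 and 171 bp in replicate 2, against 160 and 161 bp at regions with Dlx5 only. They were 183 and 179 bp with Sp1 only, and 164 and 168 bp with both.

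The mutant gives a readout that did not enter the choice of members. Sp7mut had a region at 169 of the 409 regions, or 41.3% (interval 36.5 to 46.3), while 69.6% of all Sp7 regions had one. The share was 65.2% (63.5 to 66.9) at regions with Dlx5 only, 78.6% (74.0 to 82.6) with Sp1 only and 88.6% (86.6 to 90.4) with both partners. Single Sp7mut lists gave the same order. Replicate 1 met 46.0% of members and 69.2% of regions with Dlx5 only, and replicate 2 met 61.9% and 81.7%. The members' share minus that of regions with Dlx5 only was thus -23.2 points in the first list and -19.8 in the second, while the lists themselves lay 15.9 points apart at members. Sp7mut was called against an input library that Sp7 and Dlx5 did not share, so input and factor cannot be told apart in these shares. Sp1 did share that input with Sp7mut, so the same holds for the classes with an Sp1 region. Without Sp7 replicate 2, which admits 5108 regions, 14.6% had an Sp7mut region.

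**Figure D3:**
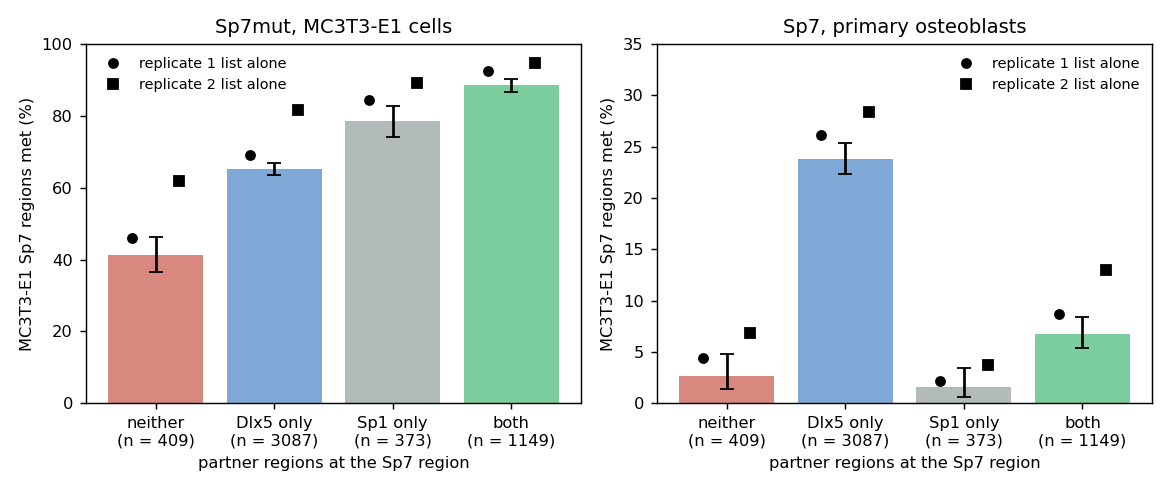
Share of Sp7 regions in MC3T3-E1 cells (y axis, %) that had an Sp7mut region (left) or a primary osteoblast Sp7 region (right), by partner class (x axis, with the number of regions). Bars show regions found in both replicates with 95% exact intervals, and symbols the single lists. The class with a region of neither partner is lowest for Sp7mut (41.3%), and for primary Sp7 (2.69%) it stands near the class with Sp1 only (1.61%).

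Part of this difference went with row position. Among members, 77.4% of the 31 in the first 3 parts of the Sp7 order had an Sp7mut region (24 regions, interval 58.9 to 90.4), against 26.0% of the 181 in the last 2 parts (19.7 to 33.0). When regions with Dlx5 only were weighted to the members' positions, their share fell from 65.2% to 51.6%, and the difference from the members was -10.3 percentage points. It was -10.2 with Sp7mut replicate 1 and -11.6 with replicate 2, so both lists placed members lower. The matched difference was smaller than the 15.9 points between the levels of the lists at members. Against regions with Sp1 only, weighted in the same way, it was -33.5 points, and against regions with both partners -38.1 points. Sp1 and Sp7mut were called against the same input, so input and factor cannot be told apart in the differences from these classes. The difference from regions with Dlx5 only was not even along the list. In the fourth part 38.2% of 34 members and 71.4% of 259 regions with Dlx5 only had an Sp7mut region, while in the eighth part 47.3% of 55 and 45.9% of 303 did. In the ninth part the shares were 26.5% of 98 and 42.4% of 276. When each list was reduced to its wider 50% of peaks, the matched difference was -3.19 points, and with an overlap of at least 50% required it was -17.6 points.

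**Figure D4:**
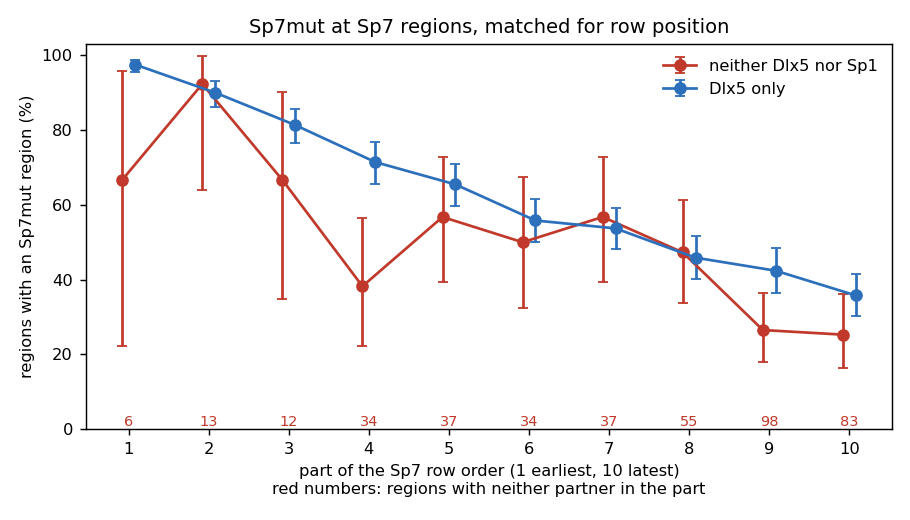
Share of regions with an Sp7mut region (y axis, %) in 10 equal parts of the Sp7 row order (x axis), for members (red, with their number) and for regions with Dlx5 only (blue); bars are 95% exact intervals. Both fall along the list; members lie above the other class in parts 2, 7 and 8 and below it in the others, with 38.2% against 71.4% in part 4.

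Sp7mut regions at members also stood later in the Sp7mut lists. The 170 Sp7mut regions that met a member had median percentiles of 49.5 in replicate 1 and 27.6 in replicate 2. The 2015 that met an Sp7 region with Dlx5 only had 22.4 and 14.8. Sp7mut regions that met no Sp7 region, 4694 in all, stood later still, at 56.2 and 44.8. Of the 240 members without an Sp7mut region, 25 had a peak of Sp7mut replicate 1 and 88 of replicate 2.

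The members' Sp7mut share differed with the single Dlx5 and Sp1 peaks they carried. It was 26.3% among the 114 regions with Dlx5 peaks only (interval 18.5 to 35.4), and 27.1% among the 48 with neither (15.3 to 41.8). Among the 63 with Sp1 peaks only it was 50.8% (37.9 to 63.6), and among the 184 with peaks of both factors 51.1% (43.6 to 58.5). The lists of Sp1 and Sp7mut were called against the same input. By mean percentile over both Sp7 lists, median positions of these subsets were close, between 51.7 and 56.8. In single lists they were 31.9 to 36.7 in Sp7 replicate 1 and 58.6 to 75.4 in replicate 2. The latest in replicate 2 were those with Sp1 peaks only. Single Sp7mut lists gave 34.2% and 45.6% for Dlx5 peaks only, and 52.4% and 68.3% for Sp1 peaks only.

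Few of the 409 regions overlapped an Sp7 region, as defined above, of primary osteoblasts. A primary Sp7 region lay at 11 of them, or 2.69% (1.35 to 4.76), against 16.6% of all Sp7 regions. The share was 23.8% (22.3 to 25.4) with Dlx5 only, 6.79% (5.40 to 8.40) with both and 1.61% (0.593 to 3.47) with Sp1 only. Single primary lists met 4.40% and 6.85% of members, and 26.1% and 28.4% of regions with Dlx5 only. The difference from regions with Dlx5 only was larger than the spread between the lists. Matching on row position left it at -11.1 percentage points, with 13.8% for the other class. From regions with Sp1 only, the members differed by 0.203 points after matching, and from regions with both partners by -0.248 points (2.94% at matched position). Both differences are less than the spread between the primary lists, 2.44 points at members. With either primary replicate left out the members' share was 6.36% and 4.16%, since 1 peak then sufficed, and without Sp7 replicate 2 it was 0.548%.

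Of the 11 members that primary Sp7 shared, 6 stood in the first 3 parts of the Sp7 order and 8 had an Sp7mut region. The earliest was chr2:16412470-16412643, at row 640 of Sp7 replicate 1 and row 272 of replicate 2. It had Sp7mut peaks in both lists, a single peak of Dlx5 replicate 2 and no Sp1 peak. Next came chr19:55889660-55889831, at rows 493 and 505. This region had peaks in both Sp7mut and both primary Sp7 lists and in none of the 4 Dlx5 and Sp1 lists. Its nearest Dlx5 region lay 15065 bp away. The pair chr7:137119192-137119360 and chr7:137119628-137120065 were both primary Sp7 and Sp7mut regions, separated by 267 bp. The first carried a peak of Dlx5 replicate 2, the second of replicate 1, and both of Sp1 replicate 2. The region chr1:172041016-172041146, at rows 715 and 683, and chr3:152231648-152231839, at rows 1997 and 841, had the same set of other peaks as the first of that pair. Later in the list, chr8:111132797-111132998, at rows 3930 and 4078, lacked all Dlx5 and Sp1 peaks but lay 186 bp from a Dlx5 region. The region chr15:38387667-38387799, at rows 5779 and 2205, was an Sp7mut region 403 bp from a Dlx5 and 219 bp from an Sp1 region. It carried a peak of Dlx5 replicate 1. At chr9:85509549-85509778, at rows 14218 and 2419, neither Sp7mut list had a peak, while Dlx5 replicate 1 did. The last of the 11, chr3:65239800-65239999, stood at rows 17531 and 5404, and of the Sp7mut lists only replicate 1 had a peak there.

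Some members at the very top of the order lay at or beside control peaks. The earliest of all, chr17:39982664-39983105, at rows 23 and 70, overlapped a peak of the wild-type FLAG control, lay 792 bp from a GFP control peak and had no Sp7mut peak. Both primary Sp7 lists had a peak there, which the control peak removed from the primary regions. The second, chr8:20020315-20020437, at rows 172 and 241, lay 156 bp from a GFP control peak and was met by 7 of the 8 other tagged lists, all but primary replicate 2. It had peaks in both Dlx5 and both Sp1 lists without counting as a region of either. Over the class, 11 of 409 members (2.69%, 1.35 to 4.76) had a GFP control peak within 10 kb, against 28 of 4609 other Sp7 regions (0.608%, 0.404 to 0.877). The part of antibody background in these regions was not tested. With all regions within 10 kb of a GFP peak left out, 398 members remained, of which 41.2% had an Sp7mut region and 2.76% a primary Sp7 region. A wild-type control peak lay over 1 member (0.244%), near the share over all Sp7 regions, 13 of 5018 (0.259%).

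The other members among the 10 earliest differed in what met them. The region chr17:44434249-44434470, at rows 517 and 381, was an Sp7mut region with a peak of primary Sp7 replicate 1. Dlx5 replicate 1 and Sp1 replicate 2 also had peaks there. This region lay 386 bp from a further member, chr17:44433684-44433862, which primary Sp7 shared. That member had peaks of Dlx5 replicate 2 and Sp1 replicate 2. At chr15:102188696-102188916, at rows 1036 and 429, a peak of Sp7mut replicate 1 was the only other peak. At chr4:34498904-34499080, at rows 1192 and 537, an Sp7mut region coincided and Dlx5 and Sp1 regions lay 995 and 1020 bp away. Dlx5 replicate 2 and primary Sp7 replicate 2 had peaks over it. The tenth, chr17:73544807-73544992, at rows 397 and 965, had Dlx5, Sp1 and Sp7mut regions within 616 bp and none of the 3 over it. Peaks of Dlx5 replicate 1, Sp1 replicate 2 and Sp7mut replicate 2 did lie over it. No mm9 annotation or sequence was used here, so genes and motifs at these positions are not given.

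Between 0 and 7 of the 8 other tagged lists (Dlx5, Sp1, Sp7mut and primary Sp7) had a peak at each member. The counts clustered from 1 to 4 lists, with 74, 94, 93 and 93 members. A further 32 members were met by 5 or more. Of the 8 lists, 4 are the Dlx5 and Sp1 lists that the rule used, which limits these counts. Shares over all Sp7 regions were not computed for them. At 23 members, 5.62% of the class (3.60 to 8.32), none of the 8 lists had a peak, against 0.458% of all Sp7 regions, a background that the rule again fixes. These 23 lay on 10 chromosomes. None stood in the first 3 parts of the Sp7 order, and 10 stood in the last 2. The earliest, chosen after its values were seen, was chr2:145993998-145994194, at rows 5127 and 1225. Of the 23, 9 had a Dlx5 or Sp1 region within 1 kb, as did 160 of all 409 members (39.1%).

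Some members lay close to regions of the partners. A Dlx5 region within 1 kb was found at 133 of the 409 regions, or 32.5% (28.0 to 37.3). Among Sp7 regions that overlapped a Dlx5 region only, 12.7% (11.5 to 13.9) had a further, non-overlapping Dlx5 region that close. Regions with Sp1 only, which like the members overlap no Dlx5 region, had one in 22.0% (17.9 to 26.5). Within 100 bp the shares of these classes were 5.87% for members and 6.43% for Sp1 only. An Sp1 region lay within 1 kb of 15.9% of members (12.5 to 19.8) and 5.73% of regions with Dlx5 only (4.94 to 6.61). Within 10 kb the Dlx5 shares came closer, at 57.7% of members, 52.7% of regions with Dlx5 only and 51.7% of all Sp7 regions. For Sp1 they were 30.8% (26.4 to 35.5), 17.9% and 21.9%. Regions with Sp1 only, at 26.5% (22.1 to 31.3), and with both partners, at 27.9% (25.4 to 30.6), were near the members. The median distance from a member to a Dlx5 region was 5829 bp, and to an Sp1 region 39989 bp. To a further Dlx5 region it was 9129 bp with Dlx5 only, 10115 bp with Sp1 only and 11004 bp with both. To a further Sp1 region it was 57413, 25884 and 28716 bp. A member cannot overlap a partner region, whereas for a region with Dlx5 the overlapped Dlx5 region is not counted, so the classes differ in what is left to count.

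**Figure D5:**
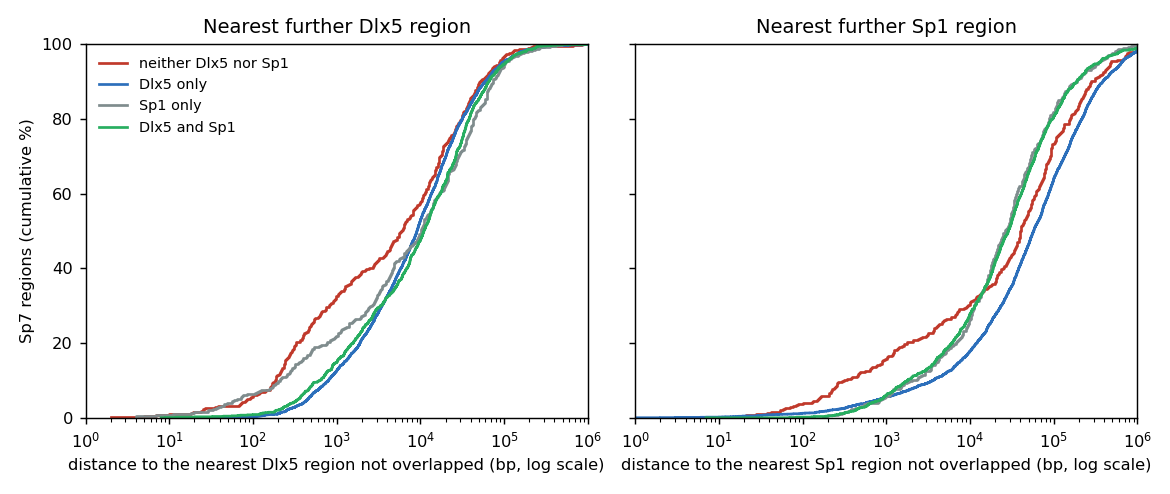
Cumulative share of Sp7 regions (y axis, %) by distance to the nearest Dlx5 (left) or Sp1 (right) region that they do not overlap (x axis, bp, log scale; abutting regions drawn at 1 bp), for the 4 partner classes. The class that overlaps a region of neither partner (red) lies above that with Dlx5 only at short range: 32.5% against 12.7% within 1 kb for Dlx5.

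Further Sp7 regions were also close. Within 1 kb, 76 members (18.6%, 14.9 to 22.7) had another Sp7 region, against 3.40% (2.79 to 4.10) of regions with Dlx5 only, 5.90% (3.73 to 8.79) with Sp1 only and 4.96% (3.78 to 6.38) with both. Within 10 kb the shares were 30.1% of members and 20.2% of all Sp7 regions. The neighbours within 1 kb belonged to every class: 31 members had one with Dlx5 only, 19 with both partners, 10 with Sp1 only and 23 another member. A member with neighbours of several classes was counted in each. Of all 5018 Sp7 regions, 3087 had Dlx5 only, 1149 both partners, 373 Sp1 only and 409 were members. When a Dlx5 or Sp1 region within 500 bp also removed an Sp7 region, 284 members were left, 42.6% with an Sp7mut region and 3.17% with a primary Sp7 region.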

How the data were processed

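Each of 12 samples had a peak list with 3 columns, chromosome, start and end, called per library by the authors. The deposited lists hold no scores, read counts or depth. Per the submitters' processing notes the build is mm9. Aligner, caller and threshold were not given in the sources used here. Sp7 and Dlx5 peaks in the line were called against 1 input, Sp1 and Sp7mut against another and primary lists against their own, per the labels. The input of the GFP list is not stated. The 3 inputs were not analysed here.

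Groups and replicate numbers came from sample titles. Primary Sp7 regions left out wild-type control peaks. Coordinates are 1-based. Members and comparisons were chosen with earlier results of these data known. Named regions were the 10 earliest by mean row percentile, the 5 widest by mean peak width, those with a primary Sp7 region, the 5 nearest on each side of the rule and the 3 largest groups of members within 10 kb. For matching, shares in the other class were averaged over 10 parts of the row order with the members' weights. The code was tested on simulated lists. Alternatives varied overlap, distance, control peaks, list length, width, matching and replicates. Motif and gene analyses, which need mm9 sequence or annotation, were not run. Scripts ran on scipy 1.17.1, pandas 2.3.3, matplotlib 3.10.9 and numpy 2.4.6 under Python 3.11.15.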

Additional observations from a re-analysis of the deposited data

How the results depend on the processing

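No paired analysis was possible because no result comes from a test and the labels tie no replicate number to a shared culture. Shares are given list by list instead. Of 24 alternatives, none turned the matched difference in Sp7mut share from -10.3 points to a positive value. Leaving out a primary Sp7 list could not change it. In 11 of the 24 it shifted by more than 0.995 points, the standard deviation between the single Sp7mut lists. Requiring an overlap of at least 50% of both gave 901 members, 29.6% with Sp7mut, 4.88% with primary Sp7, a matched difference of -17.6 points and 30.4% without any single Dlx5 or Sp1 peak. Removing regions with any such peak left 48 members, with 27.1%, 6.25% and -14.2 points. A distance of 500 bp gave -9.20 points. The earlier 50% of the rows gave 247 members, 21.5% without a single peak, and the wider 50% of the peaks 884 members, 19.1%, -3.19 points and 24.0%. Compared with all other Sp7 regions the matched difference was -18.7 points, and matched on replicate 1 rows alone, an alternative chosen after seeing the data, -13.1 points. With parts of at least 20 members only, also added later, it was -10.3 points. Leaving out each replicate of each group in turn gave 194 to 5108 members, 14.6% to 61.4% with Sp7mut and 0.548% to 6.36% with primary Sp7. Matched differences were -14.4 to -8.43 points. The share without a single peak was 24.1% to 41.4% when an Sp7, Dlx5 or Sp1 list was left out. It stayed at 11.7% for the Sp7mut and primary lists, which do not enter it. Leaving out a list drops the need for a second peak in that group. The cause of the other changes was not tested. Merging abutting peaks, added later, gave 5019 Sp7 regions and 409 members. Without depth, a missing peak does not show that a factor was absent.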

Other observations

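Members were spread over the 19 autosomes in shares of the Sp7 regions there that ranged from 4.55% on chromosome 18 (5 of 110, 95% exact interval 1.49 to 10.3) to 9.71% on chromosome 5 (27 of 278, 6.50 to 13.8), and these intervals overlap. Chromosome 6 held the most members, 44 of 510 Sp7 regions. The X chromosome had 0 members of 21 Sp7 regions, for which a limit of 3 counts allows a share of up to 14.3%, and the exact interval reaches 16.1%.

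Most members stood alone: 374 had no other member within 10 kb, 32 formed 16 pairs and 3 formed a group. The group spanned chr19:5836963-5839961, without a Dlx5 or Sp1 region inside it, and 2 of its 3 members had an Sp7mut region. It lay 2735 bp from a GFP control peak. A pair at chr19:5796177-5798347, chosen after its values were seen, lay 877 bp from a GFP control peak and had no Sp7mut region. The first pairs in chromosome order were chr2:16412470-16413152, where both members had an Sp7mut region, and chr2:139919429-139926402, where neither did.

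By the mean width of their 2 Sp7 peaks, not the width of the merged region, the leading member was chr4:134651163-134651970, with peaks of 478 and 435 bp in the 2 Sp7 lists and an Sp7mut region over it. It was followed by the wild-type control site chr17:39982664-39983105, with 436 and 442 bp. The other 3 of the 5 leading members by this measure, chr12:36163460-36163994, chr11:44739524-44739970 and chr17:87750052-87750589, had no Sp7mut region. Each of these 3 carried a peak of Sp1 replicate 2 and of 1 Dlx5 replicate.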
